A study of Mus musculus with 6 samples.

Results

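The genes described here were 5 class 3 semaphorins (Sema3a, Sema3b, Sema3c, Sema3e and Sema3f) and the neuropilins Nrp1 and Nrp2, chosen by their symbols, 7 of 31055 features in the matrix. They were measured by single-cell RNA sequencing of cells sorted from the lung tumors of 6 mice, with the droplet-based 10x 3′ assay that tags each captured transcript with a unique molecular identifier (UMI). All mice carried the Lkb1XTR/XTR alleles and Rosa26LSL-tdTomato, which marks recombined cells red. The paper sorted tdTomato-positive cells as the neoplastic cells of the tumors. Tumors were initiated with Lenti-Cre given into the trachea and grew for 20 weeks before 2 weeks of tamoxifen (4 mg doses) or vehicle. XTR is a gene trap in an intron of Lkb1 (symbol Stk11) that Cre turns into its truncating orientation and that the FLPo-ERT2 recombinase deletes under tamoxifen. The restored group held 3 mice with Rosa26LSL-tdTomato/FLPo-ERT2 that received tamoxifen. The non-restored group held 3 mice, of which 1 lacked FLPo-ERT2 and received tamoxifen, 1 lacked it and received vehicle, and 1 carried it and received vehicle. Lkb1 had thus been trapped in the tumor cells of every mouse before treatment, and no mouse with an unmodified Lkb1 gene was among the samples. The mice were of mixed C57BL/6J and 129 background, 4 male and 2 female, and their age is not given in the labels.

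The matrix pooled all 6 mice, and its cells were not mapped to mice here. Restored and non-restored tumors were therefore not compared, the matrix counted as 1 sample, and no p-value is given. Values below are sums over cells, and their 95% intervals cover counting error only, not the spread between mice. The mice behind each gate or class of cells are not known and may differ between them. The 16017 cells held 266713311 UMIs, and 12183 cells with at least 500 genes and at most 20% mitochondrial UMIs were kept.

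Class 3 semaphorins are secreted proteins that were first known for repelling growing axons and that also steer endothelial cells and limit vessel branching. Most of them bind a neuropilin, which has only a short intracellular tail, and signal through a plexin that the neuropilin holds in the same complex. Sema3a binds Nrp1, Sema3f prefers Nrp2, Sema3b and Sema3c can use both, and Sema3e differs by binding plexin D1 (Plxnd1) directly. Neuropilins are also co-receptors for vascular endothelial growth factors. In the lung alveolus, cuboidal alveolar type II (ATII) cells make surfactant and give rise to thin alveolar type I (ATI) cells through a transitional state with raised keratin 8, and the ATI cells lie against the capillary endothelium.

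Cells were assigned to 4 gates by the UMIs of marker genes per 10000 UMIs of the cell. The gate names ATII and ATI refer to marker levels in cells of tumors, whose states the paper calls ATII-like and ATI-like. The ATII gate required at least 500 of Sftpc (surfactant protein C) with under 2 of Hopx (a homeobox factor of ATI cells), the ATI gate at least 15 of Hopx, and both required under 50 of Krt8 and Krt18 together. The keratin-high gate required at least 50 of those keratins, and the endothelial gate required Pecam1 and Cdh5, which encode junction proteins of vessels. The gates held 6975, 956, 1183 and 113 cells, with median depths of 21660, 11796.5, 23490 and 12051 UMIs per cell, and 2962 kept cells fell in none. The names were checked against markers that the gates did not use: 7 of 7 ATII markers were highest in the ATII gate, 6 of 7 ATI markers in the ATI gate, 4 of 4 keratin markers in the keratin-high gate and 6 of 6 endothelial markers in the endothelial gate. The ATI gate kept 47497 CPM of Sftpc, against 155328 CPM in the ATII gate, where CPM is UMIs per 1000000 UMIs of the gate. The keratin-high gate held 19250 CPM and the endothelial gate 10957 CPM of it, and the part of ATII RNA in the values of these gates was not tested. The sort had excluded cells with CD31, the Pecam1 protein, as well as blood cells by CD45, F4/80 and Ter119, so the endothelial gate holds the few that passed it. That gate also held the highest level of all 6 fibroblast markers, with a summed 1400 CPM against 10.0 to 31.2 CPM in the epithelial gates, and it shared 5 cells with the ATII gate, 1 with the keratin-high gate and 2 with a fibroblast gate. Club cell markers summed to 739 CPM there against 16.5 to 121 CPM in the epithelial gates, mostly through Scgb3a1, a secretoglobin gene (656 CPM against 0.601 CPM or less).

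On GRCm38 (GENCODE M21), Sema3a spans chromosome 5 from 13125414 to 13602565, Sema3e chromosome 5 from 14025276 to 14256689 and Sema3c chromosome 5 from 17574281 to 17730268, all on the plus strand. Sema3b (107597674 to 107609229) and Sema3f (107681500 to 107710475) lie close together on the minus strand of chromosome 9. Nrp1 lies on chromosome 8 from 128358604 to 128503363 and Nrp2 on chromosome 1 from 62703285 to 62818695, both on the plus strand. Sema3a, Sema3e, Nrp1 and Nrp2 each overlap annotated non-coding genes on the same strand, whereas Sema3b, Sema3c and Sema3f overlap none. Whether those overlapping genes are features of the matrix, and so could take UMIs, was not checked.

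The start regions of Sema3a, Sema3e, Nrp1 and Nrp2 are shown because these were the genes that differed at least 2-fold between the ATII and ATI gates and had a RefSeq entry here. Each sequence runs from 250 bases before to 50 bases after the RefSeq start on GRCm38.p6, read 5′ to 3′ on the plus strand, with CpG dinucleotides in capitals. They lie at chr5:13396534-13396833, chr5:14025026-14025325, chr8:128358823-128359122 and chr1:62703067-62703366, and the RefSeq start of Sema3a falls inside the GENCODE gene, downstream of its 5′ end.
Sema3a: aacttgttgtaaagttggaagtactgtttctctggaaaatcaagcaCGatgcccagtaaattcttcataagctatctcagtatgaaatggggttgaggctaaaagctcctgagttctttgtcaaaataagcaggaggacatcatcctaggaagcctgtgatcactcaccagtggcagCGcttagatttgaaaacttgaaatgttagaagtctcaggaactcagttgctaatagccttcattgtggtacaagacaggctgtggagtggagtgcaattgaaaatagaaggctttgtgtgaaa
Sema3e: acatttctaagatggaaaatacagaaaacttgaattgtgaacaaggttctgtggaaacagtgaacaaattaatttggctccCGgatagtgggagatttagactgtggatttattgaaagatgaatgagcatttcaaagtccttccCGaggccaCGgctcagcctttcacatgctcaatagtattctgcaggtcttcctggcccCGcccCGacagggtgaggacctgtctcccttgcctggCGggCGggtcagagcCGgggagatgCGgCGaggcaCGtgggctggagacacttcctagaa
Nrp1: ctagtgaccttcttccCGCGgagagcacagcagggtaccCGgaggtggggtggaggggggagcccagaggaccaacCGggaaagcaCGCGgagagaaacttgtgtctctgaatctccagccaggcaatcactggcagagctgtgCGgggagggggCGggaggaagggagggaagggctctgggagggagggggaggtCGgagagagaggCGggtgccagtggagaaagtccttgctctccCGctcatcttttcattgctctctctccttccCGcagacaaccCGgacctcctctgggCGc
Nrp2: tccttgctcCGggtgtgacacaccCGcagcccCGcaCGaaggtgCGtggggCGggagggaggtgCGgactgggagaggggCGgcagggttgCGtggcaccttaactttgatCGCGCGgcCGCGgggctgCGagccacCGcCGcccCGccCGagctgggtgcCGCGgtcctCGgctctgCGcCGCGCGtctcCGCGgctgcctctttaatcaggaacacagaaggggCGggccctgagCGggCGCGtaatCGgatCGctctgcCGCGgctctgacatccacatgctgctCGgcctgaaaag
The Sema3a window held 2 CpGs and 41.3% G and C, and 14.1% of 32851 RefSeq promoters of the same length held fewer CpGs. The Sema3e window held 11 CpGs, the Nrp1 window 14 and the Nrp2 window 37, against a median of 7 over all promoters. The Sema3c window (chr5:17574566-17574865) held 42 CpGs. The AP-1 motif TGANTCA, the TEAD motif GGAATG, the NKX2-1 motif CAAGTG and the C/EBP motif TTNNGNAA were searched on both strands. None of them matched in these 4 windows, and 1 NKX2-1 match was present in that of Sema3c. Over all promoters these letters were found in 7.81%, 14.7%, 13.6% and 40.7% respectively.

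Across the epithelial gates, the ligands Sema3a and Sema3e were highest in the ATI gate, Sema3b was high in both the ATI and the keratin-high gate, and Sema3c was highest in the keratin-high gate. The receptor Nrp1 was highest in the ATII gate and Nrp2 in the ATI gate. Sema3f was low in all 3 epithelial gates and high in the endothelial gate, where both neuropilins reached their highest levels.

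**Figure D1:**
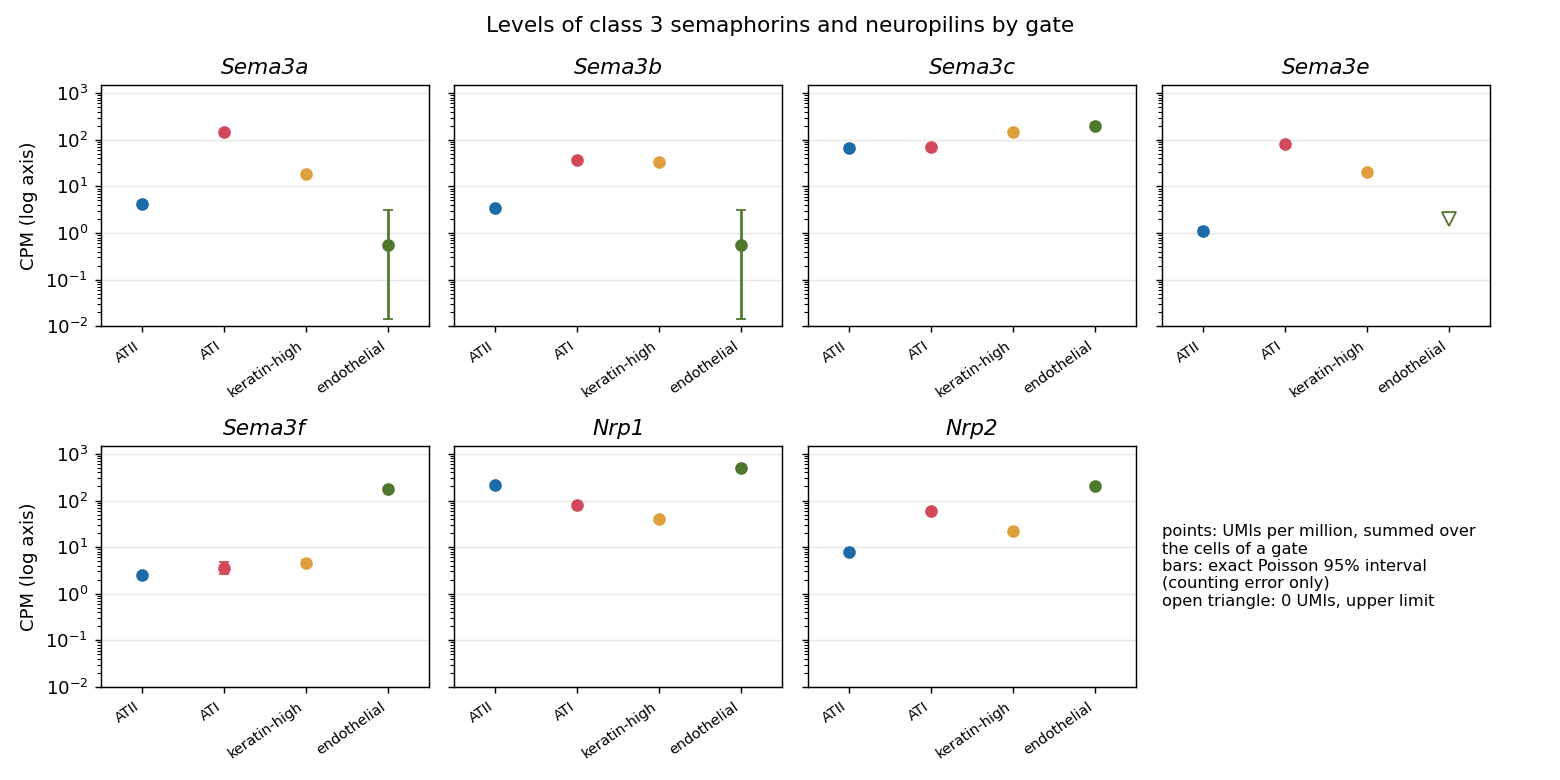
Level of each gene in each gate, in CPM on a log axis, with exact Poisson 95% intervals (often smaller than the point) and an open triangle for the upper limit where no UMI was counted. Sema3a and Sema3e peak in the ATI gate at 148 and 81.9 CPM, and Sema3f in the endothelial gate at 175 CPM.

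Sema3a encodes the founding member of the class, a repellent for axons and endothelial cells. It was counted at 4.25 CPM in the ATII gate (95% exact Poisson interval 3.94 to 4.58; 686 UMIs), at 148 CPM in the ATI gate (141 to 155; 1973 UMIs) and at 18.2 CPM in the keratin-high gate (16.7 to 19.7; 557 UMIs). The endothelial gate held 1 UMI. The order was thus ATI, keratin-high, ATII and endothelial, and the ATII and endothelial intervals did not overlap. The ATI level was 34.8-fold that of the ATII gate (exact conditional interval 31.9 to 38.0) and 8.14-fold that of the keratin-high gate (7.41 to 8.96). The median ATI cell held 2 Sema3a UMIs, at least 1 cell in 10 held 5 or more, and the richest cell held 18.

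Sema3e, whose receptor plexin D1 is an endothelial guidance receptor, had the largest ratio of ATI to ATII of the 7 genes. It stood at 1.10 CPM in the ATII gate (0.946 to 1.28; 178 UMIs), 81.9 CPM in the ATI gate (77.1 to 86.9; 1093 UMIs) and 20.3 CPM in the keratin-high gate (18.8 to 22.0; 624 UMIs). No UMI was counted in the endothelial gate, where 3 counts would be 1.66 CPM. The ATI level was 74.3-fold the ATII level (63.4 to 87.6) and 4.03-fold the keratin-high level (3.65 to 4.45). The ATII and endothelial gates could not be ordered, since the endothelial floor lay above the ATII level.

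Sema3b, a semaphorin of the 3p tumor suppressor region in humans, was nearly level between the ATI and keratin-high gates. Its levels were 3.41 CPM in the ATII gate (3.13 to 3.71; 551 UMIs), 37.7 CPM in the ATI gate (34.5 to 41.1; 503 UMIs) and 33.0 CPM in the keratin-high gate (31.0 to 35.1; 1011 UMIs). The ATI level was 11.0-fold (9.77 to 12.5) and the keratin-high level 9.66-fold (8.70 to 10.7) that of the ATII gate. The ratio of ATI to keratin-high was 1.14 (1.03 to 1.27), and with a keratin limit of 100 it turned to the other side (log2 ratio -0.057 against 0.19). The endothelial gate held 1 UMI.

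Sema3c, which attracts as well as repels and is needed for septation of the cardiac outflow tract, was counted at similar levels in the ATII and ATI gates. It stood at 66.2 CPM in the ATII gate (65.0 to 67.5), 71.0 CPM in the ATI gate (66.5 to 75.6), 147 CPM in the keratin-high gate (143 to 151) and 202 CPM in the endothelial gate (182 to 224). The keratin-high level was 2.22-fold the ATII level (2.14 to 2.29), and the endothelial level 3.05-fold (2.74 to 3.38). The ratio of ATI to ATII was 1.07 (1.00 to 1.15), and its direction turned under 4 alternatives, to between -0.018 and -0.25 on the log2 scale. It was the one member lower in the ATI than in the keratin-high gate by at least 2-fold, at a ratio of 0.483 (0.450 to 0.519), a log2 ratio of -1.05 that became -0.94, under 2-fold, without the 10 most abundant genes in the denominator.

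Sema3f, an Nrp2 ligand that repels endothelial and lymphatic cells, was low in the epithelial gates. It had 2.54 CPM in the ATII gate (2.30 to 2.80), 3.60 CPM in the ATI gate (2.65 to 4.77) and 4.60 CPM in the keratin-high gate (3.87 to 5.42). The ATI interval overlapped those of both neighbours. In the endothelial gate it stood at 175 CPM (156 to 196; 317 UMIs in 113 cells), 68.9-fold the ATII level (59.3 to 79.9). The median endothelial cell held 2 UMIs of Sema3f and the richest held 22.

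Nrp1, the receptor for Sema3a and a co-receptor for VEGF-A, was highest in the epithelial gate where Sema3a was lowest. It was counted at 216 CPM in the ATII gate (214 to 219; 34969 UMIs), 81.5 CPM in the ATI gate (76.7 to 86.4; 1087 UMIs), 40.0 CPM in the keratin-high gate (37.8 to 42.3; 1227 UMIs) and 500 CPM in the endothelial gate (468 to 534; 905 UMIs). No neighbouring intervals overlapped. The ATII level was 2.66-fold the ATI level (2.50 to 2.83) and 5.41-fold the keratin-high level (5.11 to 5.73). The median ATII cell held 4 Nrp1 UMIs, the median ATI and keratin-high cell none.

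Nrp2, a receptor for Sema3f and for VEGF-C on lymphatic endothelium, followed the order of Sema3a within the epithelium. Its level was 7.84 CPM in the ATII gate (7.41 to 8.28; 1266 UMIs), 60.6 CPM in the ATI gate (56.4 to 64.9; 808 UMIs), 21.9 CPM in the keratin-high gate (20.3 to 23.6; 671 UMIs) and 200 CPM in the endothelial gate (180 to 222; 362 UMIs). The 4 intervals were apart from each other. The ATI level was 7.73-fold (7.06 to 8.44) and the endothelial level 25.5-fold (22.7 to 28.7) that of the ATII gate. The part of fibroblast or club cell RNA in the endothelial values of Nrp1, Nrp2, Sema3c and Sema3f was not tested. The other cells of a fibroblast gate held 400 CPM of Nrp1, 80.0 CPM of Nrp2 and 37.1 CPM of Sema3c and 3.87 CPM of Sema3f, each below the endothelial level.

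For counts over gene lists, a gene with at least 1 CPM in either gate was called where its ratio was at least 2-fold with a counting interval that excluded 1. All 7 genes passed that minimum in each comparison. The gates, the 7 genes and the pathway lists were chosen with earlier results of these data known, so the counts are a description and no test. Sema3d and Sema3g, under 1 CPM in all epithelial gates, are not among the 7. From ATII to ATI, 4 of 7 were called higher (Sema3a, Sema3b, Sema3e and Nrp2), against 13.3% of 12058 genes, and Nrp1 was called lower, against 8.12%. The median log2 ratio over the 7 genes was 2.95, and that over all genes was 0.35. From ATII to keratin-high, Sema3a, Sema3b, Sema3c, Sema3e and Nrp2 were called higher (background 16.4% of 12183) and Nrp1 lower (6.83%), with medians of 1.48 and 0.35. Between ATI and keratin-high, Sema3a, Sema3e, Nrp1 and Nrp2 were called higher in ATI (5.85% of 12160) and Sema3c lower (9.28%), with medians of 1.03 and -0.0057. The Nrp1 ratio there was 2.04 (1.87 to 2.21), and its lowest alternative was a log2 ratio of 0.81, under 2-fold. Between endothelial and ATII, Sema3c, Sema3f, Nrp1 and Nrp2 were called higher (31.0% of 13423) and Sema3a and Sema3b lower (11.1%), with medians of 1.21 and 0.54. The Sema3a and Sema3b ratios of that comparison rest on 1 endothelial UMI each, at 0.130 (0.00329 to 0.728) and 0.162 (0.00410 to 0.907), and 1 of these 2 calls was lost without cells shared between gates and without the 6% of cells with most UMIs. Both genes stood at 0.553 CPM in the endothelial gate, under the minimum, and so entered only through the ATII gate where they were high. The ATII gate stands in 3 of these comparisons.

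Because the median gene was itself shifted, the ratios were also taken relative to it. From ATII to ATI the log2 ratio was then 5.87 for Sema3e, 4.77 for Sema3a, 3.12 for Sema3b, 2.60 for Nrp2, 0.15 for Sema3f, -0.25 for Sema3c and -1.76 for Nrp1. From ATII to keratin-high it was 3.85 for Sema3e, 2.92 for Sema3b, 1.74 for Sema3a, 1.13 for Nrp2, 0.79 for Sema3c, 0.50 for Sema3f and -2.79 for Nrp1. From ATII to endothelial it was 5.57 for Sema3f, 4.14 for Nrp2, 1.07 for Sema3c and 0.67 for Nrp1. Sema3c in the keratin-high gate and Nrp1 in the endothelial gate were therefore less than 2-fold apart from ATII on this scale.

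The share of cells with a UMI was compared after each cell was thinned to 5000 UMIs, which left out 203 ATII, 115 ATI, 93 keratin-high and 30 endothelial cells. Sema3a was detected in 49.9% of 841 ATI cells (exact binomial interval 46.5 to 53.4), 7.89% of 1090 keratin-high cells (6.36 to 9.65) and 2.48% of 6772 ATII cells (2.12 to 2.88). Without thinning the first 2 shares were 71.4% and 25.2%. Of 83 endothelial cells, 0 had a Sema3a UMI, which allows a share of up to 3.61%, so at this depth the ATII share could not be told from that of the endothelial gate. At 3000 UMIs the shares were 1.62% and 1.00% (0.0253 to 5.45). Without thinning they were 7.66% and 0.885%, in ATII cells that were deeper. Sema3e was detected in 32.6% of ATI cells (29.4 to 35.9), 9.17% of keratin-high cells (7.53 to 11.0) and 0.694% of ATII cells (0.510 to 0.922). The Sema3e share in the ATII gate also lay under the endothelial limit of 3.61%. Without thinning Sema3e was found in 50.3%, 27.8% and 2.24% of these cells.

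Sema3b was detected in 16.8% of ATI cells (14.3 to 19.5) and 15.6% of keratin-high cells (13.5 to 17.9), against 1.83% of ATII cells and 1.20% of endothelial cells. Sema3c reached 49.3% of keratin-high cells (46.3 to 52.3), 27.6% of ATII cells (26.5 to 28.7), 24.5% of ATI cells (21.6 to 27.5) and 41.0% of endothelial cells (30.3 to 52.3). The endothelial and keratin-high intervals overlap, and the richest 5% of endothelial cells held 35.6% of that gate's Sema3c UMIs. Sema3f was found in 1.21% to 1.83% of the cells of each epithelial gate and in 53.0% of endothelial cells (41.7 to 64.1). Nrp1 was detected in 63.1% of ATII cells (61.9 to 64.2), 27.7% of ATI cells (24.7 to 30.9), 15.5% of keratin-high cells (13.4 to 17.8) and 74.7% of endothelial cells (64.0 to 83.6). Nrp2 was found in 4.11%, 23.9%, 11.0% and 48.2% of the same gates. Without thinning, Sema3b was found in 34.2% of ATI and 45.9% of keratin-high cells, and Nrp1 in 92.5% of ATII and 88.5% of endothelial cells, so that both orders turned with depth. Unthinned shares of Sema3c ran from 46.5% in ATI to 83.0% in keratin-high cells, and those of Nrp2 from 14.4% in ATII to 70.8% in endothelial cells.

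**Figure D2:**
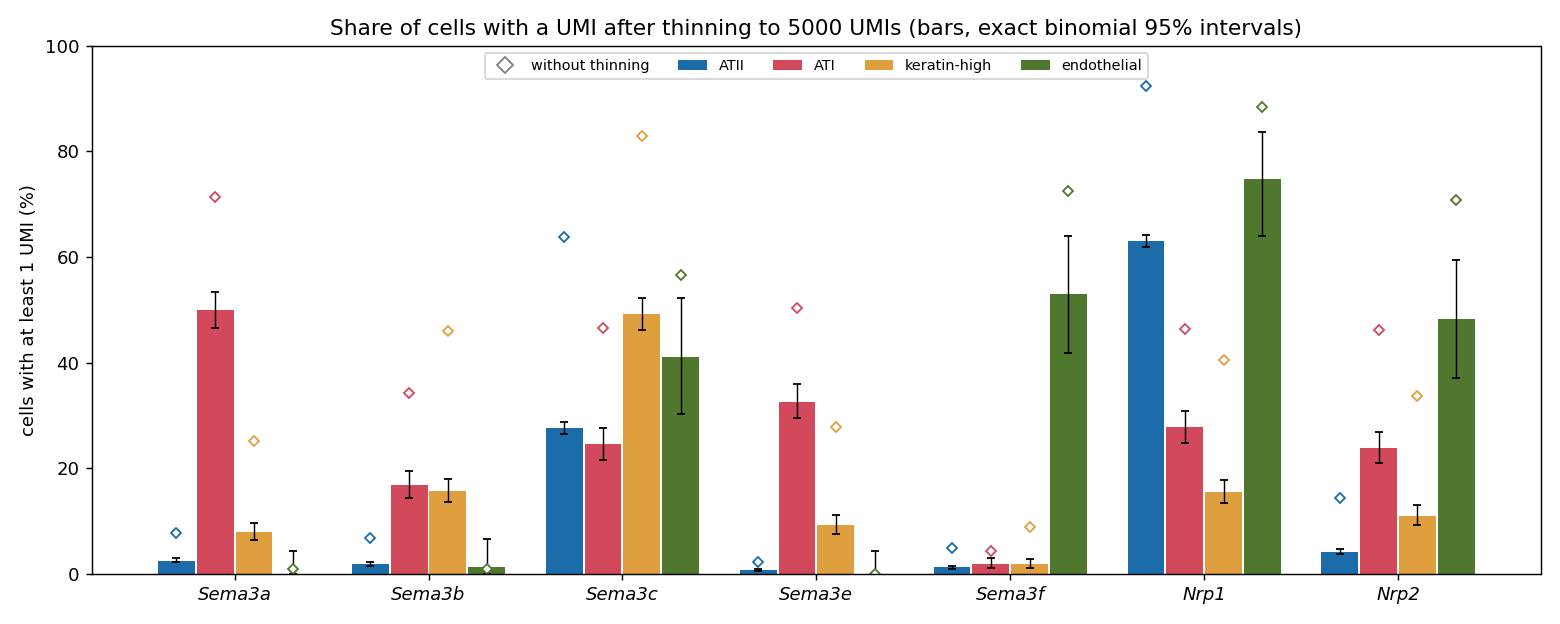
Percent of cells with at least 1 UMI of each gene after thinning to 5000 UMIs per cell, by gate, with exact binomial 95% intervals and diamonds for the shares without thinning. The ATI bars stand highest for Sema3a and Sema3e (49.9% and 32.6%), and among the epithelial bars the ATII bar stands highest for Nrp1 (63.1%).

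Levels were next followed along Hopx in the kept cells with under 50 of the keratins, leaving out cells of the endothelial, fibroblast, immune and ciliated classes. Sema3a had 3.35 CPM in 4672 cells without Hopx, 23.7 CPM at 2 to 5 Hopx UMIs per 10000, 66.0 CPM at 5 to 15, 116 CPM at 15 to 30, 173 CPM at 30 to 60 and 236 CPM (212 to 262) in the 151 cells with 60 or more. It was thus higher in each successive bin. Sema3e ran from 0.899 CPM to 182 CPM (161 to 205) over the same bins, Sema3b from 3.69 to 47.7 CPM and Nrp2 from 7.45 to 92.0 CPM. Nrp1 ran the other way, from 213 CPM through 119 CPM at 5 to 15 to 51.0 CPM (40.2 to 63.7). Sema3c was highest in the middle, at 102 CPM (97.1 to 107) with Hopx at 5 to 15, against 71.4 CPM without Hopx and 39.1 CPM (29.7 to 50.4) in the top bin. Sema3f stayed between 2.49 and 5.96 CPM. Sftpc itself ran from 147613 to 15862 CPM over these bins and the median depth of the cells was 16746.5 UMIs in the first and 9126 in the last, and the part of either in the levels was not tested.

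**Figure D3:**
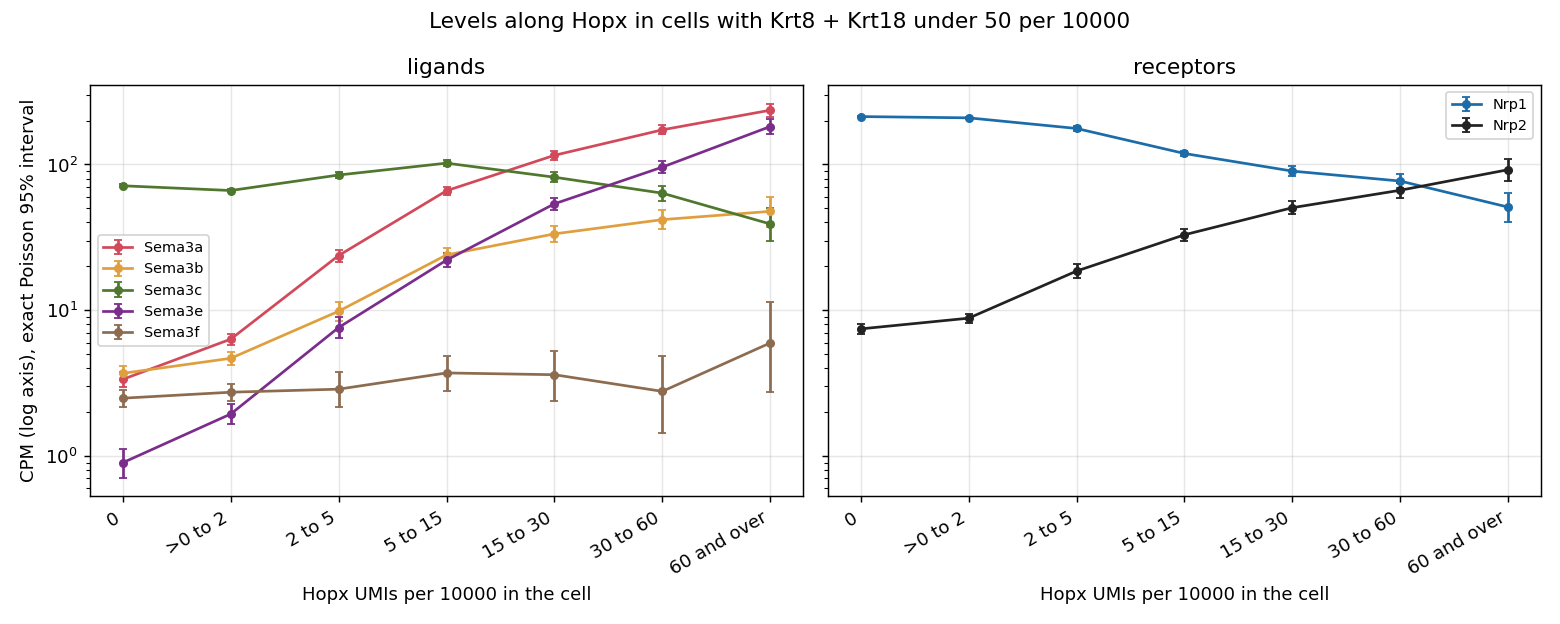
Level in CPM (log axis, exact Poisson 95% intervals) against Hopx UMIs per 10000 of the cell, in cells with Krt8 and Krt18 under 50, for the ligands and for the receptors. Sema3a and Sema3e are higher in every successive bin, up to 236 and 182 CPM, while Nrp1 ends at 51.0 CPM.

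Within the ATI gate, the 259 cells that still had at least 500 of Sftpc were compared with the 697 below it. Sema3a stood at 113 CPM (103 to 123) in the former and 168 CPM (159 to 176) in the latter, and Sema3e at 51.2 CPM (44.9 to 58.0) and 99.1 CPM (92.6 to 106). Nrp1 was 120 CPM (111 to 130) in the Sftpc-rich cells and 59.7 CPM (54.7 to 65.1) in the others. In the keratin-high gate Nrp1 likewise was 91.1 CPM in 165 Sftpc-rich cells and 31.3 CPM in the other 1018. Sema3a did not repeat its ATI direction there, at 21.6 CPM (17.5 to 26.4) and 17.6 CPM (16.0 to 19.3) with overlapping intervals. Sema3e did, at 14.2 CPM (10.9 to 18.1) and 21.4 CPM (19.7 to 23.2). Sema3c was higher in the Sftpc-poor cells of both gates, at 80.9 against 53.2 CPM in ATI and 153 against 110 CPM in keratin-high.

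The keratins gave a different order. Over bins of Krt8 and Krt18 from above 0 to 5 up to 100 or more per 10000, Sema3c ran from 61.6 to 157 CPM, Sema3b from 2.24 to 40.8 CPM and Nrp1 from 225 down to 28.5 CPM. Sema3a was highest at 25 to 50 of the keratins, with 39.7 CPM (37.5 to 42.0), and stood at 11.8 CPM (9.71 to 14.2) in the top bin. Sema3e was 20.2 CPM at 25 to 50 and 20.4 CPM in both bins above. The ATI gate has its keratin limit at 50, so ATI cells lie in the lower bins.

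The 2 axes were crossed in 12 classes of cells that exclude each other. Of the keratin-high cells, 127 also had at least 15 of Hopx, and these held 74.4 CPM of Sema3a (63.3 to 87.0) and 71.6 CPM of Sema3e (60.7 to 83.9). The 1053 keratin-high cells with less Hopx held 14.0 CPM of Sema3a (12.6 to 15.4) and 16.6 CPM of Sema3e (15.1 to 18.1). Sema3b was highest of all classes in the keratin-high cells with raised Hopx, at 52.9 CPM (43.6 to 63.6), where Nrp1 was lowest, at 29.5 CPM (22.7 to 37.7). Among ATII cells, the 3539 with under 100 of Lyz2 (lysozyme, a marker of mature ATII cells) held 6.69 CPM of Sema3a, 10.7 CPM of Nrp2 and 82.5 CPM of Sema3c. The 3419 cells with more Lyz2 held 2.23, 5.22 and 52.3 CPM of the same genes. Nrp1 was 218 and 214 CPM in the low-Lyz2 and high-Lyz2 classes, with overlapping intervals. Cells between the gates, 1125 with high Sftpc and some Hopx, had 37.1 CPM of Sema3a, 22.5 CPM of Nrp2 and 184 CPM of Nrp1, each between its ATII and ATI values. Sema3b (11.0 CPM) and Sema3e (10.1 CPM) were also between them. Sema3c, at 75.2 CPM (71.8 to 78.7), lay above both values, and Sema3f, at 2.49 CPM (1.90 to 3.20), below both.

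**Figure D4:**
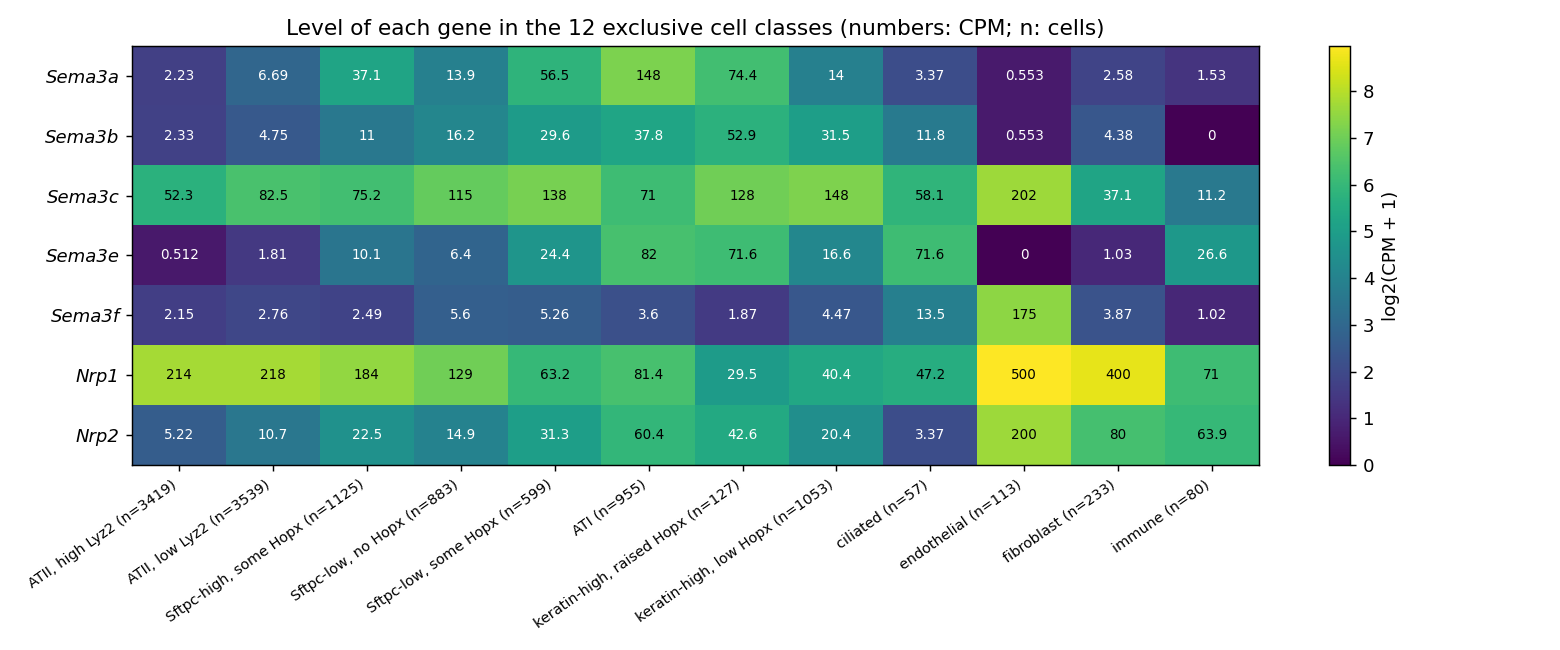
Heat map of log2(CPM + 1) for the 7 genes in the 12 exclusive cell classes, with the CPM printed in each cell of the map and the number of cells under each class. Sema3a is highest in the ATI class (148 CPM), Sema3b in keratin-high cells with raised Hopx (52.9 CPM), and Nrp1 is lowest there (29.5 CPM).

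Ligand and receptor UMIs were also counted in the same thinned cells, as a description of sparse counts. In the ATI gate 14.5% of cells held both Sema3a and Nrp1 (exact binomial interval 12.2 to 17.1), and the product of the single shares was 13.8%. Sema3a and Nrp2 were found together in 14.6% of ATI cells (12.3 to 17.2; product 11.9%), and Sema3a and Sema3e in 19.3% (16.6 to 22.1; product 16.3%). Sema3c and Nrp1 shared 17.8% of ATII cells (16.9 to 18.7; product 17.4%). Sema3f and Nrp2 shared 26.5% of endothelial cells (17.4 to 37.3; product 25.5%). Sema3e and Plxnd1 were seen together in 6 of 841 ATI cells, where Plxnd1 was detected in 1.43% of cells. In the endothelial gate Plxnd1 was detected in 31.3% of cells and Sema3e in none of 83. Sema3c and Nrp2 were found together in 4.16% of ATI cells (2.92 to 5.74; product 5.85%). Over 10 pairs in 4 gates the product lay below the interval in 6 of 40 cases, among them Sema3a with Nrp2 and with Sema3e in the ATI gate, and above it in 1, Sema3c with Nrp2 in the ATI gate.

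Of 57 other genes of semaphorin signalling that were listed, 38 reached 1 CPM in the ATI or ATII gate. From ATII to ATI, 10 were called higher and 7 lower, against 13.3% and 8.12% of all genes. Of these, 2 of the higher and 4 of the lower genes were under 1 CPM in the other gate and so entered only through the gate where they were high. The count of lower genes was 2 with at least 5 CPM and 11 with Hopx of at least 30. Here and below, the shares of all genes under such other settings were not counted. The class A plexins are the signalling partners of the neuropilins. Plxna1 was 59.7 CPM in ATI and 14.3 CPM in ATII cells, a ratio of 4.17 (3.84 to 4.52), whereas Plxna2 (33.3 and 44.1 CPM) and Plxna4 (42.3 and 65.9 CPM) were under 2-fold apart in the other direction. Plxnd1, the receptor of Sema3e, was low in both, at 2.85 and 4.82 CPM. Downstream, Dpysl2 (CRMP2), which carries the Sema3a signal to microtubules, was 306 CPM in ATI and 28.7 CPM in ATII cells, a ratio of 10.7 (10.3 to 11.2). Mical1, an oxidoreductase that severs actin filaments below plexins, had a ratio of 5.93 (5.20 to 6.74), and L1cam, an adhesion partner of Nrp1, of 4.76 (4.03 to 5.60). The Nrp1 co-ligand Vegfa was 399 CPM in ATI and 165 CPM in ATII cells, a ratio of 2.43 (2.36 to 2.50). Relative to the median gene, the log2 ratios of Vegfa (0.93), Farp1 (0.85) and Sema4f (0.79) were under 2-fold. Sema4a, a membrane-bound class 4 semaphorin, was 5.10 CPM in ATI and 32.0 CPM in ATII cells, and Sema4g, Sema6b, Plxnc1, Flt1, Fes and Fyn were also called lower. Furin, a protease that processes class 3 semaphorins, differed little (45.2 and 50.5 CPM).

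From ATII to keratin-high, 14 of 39 tested genes were called higher and 3 lower, against 16.4% and 6.83% of all genes. Sema5a, Sema7a and Vegfd among the higher, and Sema4g and Plxnc1 among the lower, were under 1 CPM in the other gate and entered only through the gate where they were high. The count of lower genes was 6 without the 10 most abundant genes in the denominator, 7 relative to the median gene and 1 with at least 5 CPM. Sema7a, a lipid-anchored semaphorin, was 13.4 CPM against 0.130 CPM, a ratio of 103 (66.4 to 168). Plxna1 (ratio 3.67), Dpysl2 (4.40), Mical1 (6.16), L1cam (6.23) and Rnd1 (5.45), a small GTPase that binds plexins, were higher in keratin-high cells. The GTPases Rac1 (2.41) and Rras (3.45) were also called higher. Relative to the median gene, Rac1 (log2 ratio 0.91), Gipc1 (0.95), Farp1 (0.79) and Sema4b (0.81) were under 2-fold. The lower genes were Sema4a, Sema4g and Plxnc1. Between ATI and keratin-high, Plxnc1, Vegfa and Dpysl2 were called higher in ATI and 8 of 38 lower, among them Sema7a, Sema4b and Plxnd1, against 5.85% and 9.28% of all genes. Of these, 1 of the higher genes, Plxnc1, and 3 of the lower were under 1 CPM in the other gate. The higher count was 5 without the 10 most abundant genes and with Hopx of at least 30, and the lower count 5 with at least 5 CPM.

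The endothelial gate had 28 of 53 tested genes called higher and 9 lower than ATII, against 31.0% and 11.1% of all genes. Of the 28, 16 were under 1 CPM in the ATII gate and entered only through the endothelial gate, and Vegfd and Nrcam among them had 2 endothelial UMIs each. The lower count was 14 relative to the median gene. Of the 34 genes with at least 1 CPM in both gates, 12 were higher and 8 lower, and the share of all genes under that stricter minimum was not counted. Plxnd1 stood at 91.8 CPM there (166 UMIs; ratio 19.1, 16.0 to 22.6). The VEGF receptors Kdr and Flt1 reached 271 and 676 CPM against 0.173 and 1.75 CPM in ATII cells, and Kdr is one of the markers used to check the gate. The class 3 semaphorins outside the 7 were under 1 CPM in all epithelial gates. Sema3g had 73 UMIs (40.4 CPM) and Sema3d 12 UMIs (6.63 CPM) in the endothelial gate. Plxna4 was lower than in ATII cells, at 21.6 CPM, as were Plxnb1 and Sema4a.

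**Figure D5:**
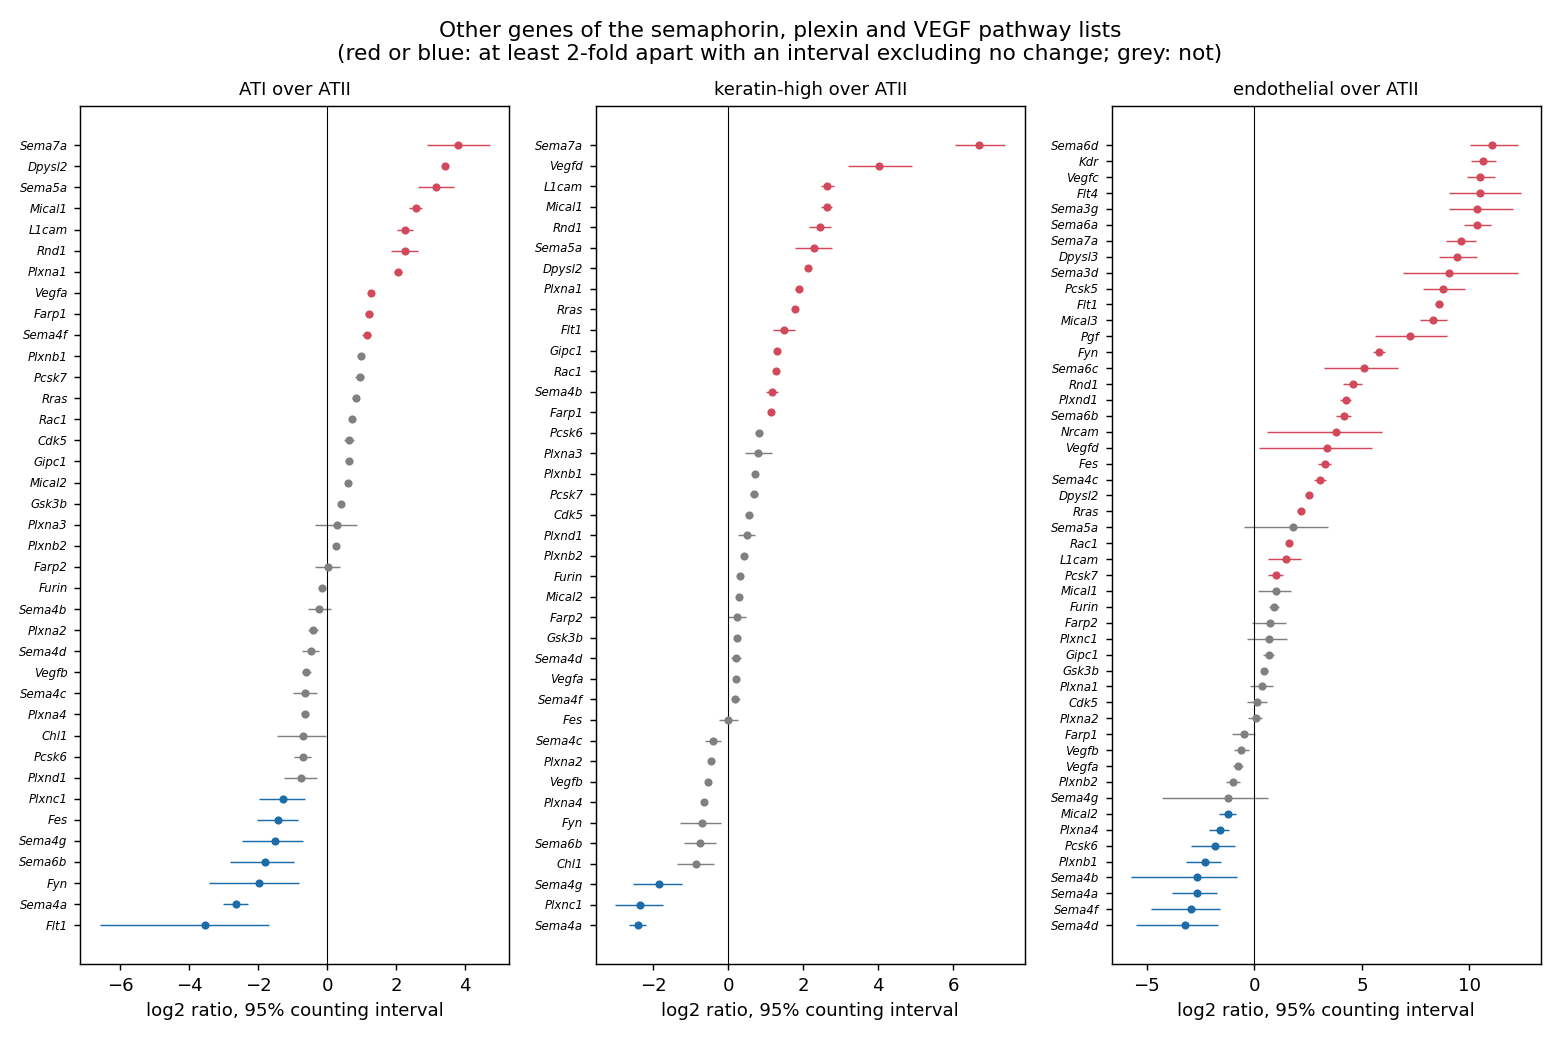
Log2 ratio of the other listed genes between gates, with 95% counting intervals, for genes with at least 1 CPM in either gate and at least 1 UMI in both. Red marks genes at least 2-fold higher and blue at least 2-fold lower with an interval that excludes no change, with Plxna1 and Dpysl2 among the red genes in ATI over ATII and Plxnd1 and Kdr in endothelial over ATII.

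The genes whose level was most like that of each of the 7 were found by Pearson's r of log2(CPM + 1) over the 12 classes among 11764 genes with at least 10 CPM in a class. These values describe 12 classes of 1 pooled sample, which share libraries and are cut by the same markers. Sema3a was most like Col4a3 (r = 0.98), Hs2st1 (0.97) and Col4a4 (0.97), of which Col4a3 and Col4a4 encode chains of a basement membrane collagen. Nrp1 was most like Xdh (0.94), 1700025G04Rik (0.92) and Cebpd (0.92), Nrp2 most like Ptdss1, Bnip2 and Mfap3 (each 0.96), and Sema3e most like Glipr1 (0.95), Mettl5 and Vps28 (each 0.94). Sema3c was most like the receptor tyrosine kinase gene Ret (0.97), Grasp (0.96) and Dennd2c (0.95), Sema3b most like Fbxw8, Fam234a and Emp2 (0.97 to 0.98), and Sema3f most like Epc1 (0.97), Prdm8 and E2f7 (each 0.96). An r of at least 0.95 was reached by 28 genes for Sema3b, 12 for Sema3f, 9 for Sema3a, 5 for Nrp2, 3 for Sema3c and 0 for Sema3e and Nrp1. Sema3f stood at 175 CPM in the endothelial class and next highest, at 13.5 CPM, in the ciliated class. Between the members, r was 0.87 for Sema3a and Sema3b, 0.64 for Sema3a and Sema3e, -0.53 for Sema3a and Nrp1 and -0.89 for Sema3e and Nrp1. By Spearman's rho the 3 closest genes shared 1 with those named for Sema3a, Sema3e and Nrp2 and 0 for the others.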

How the data were processed

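Sorted lung tumor cells of 6 mice were profiled by 10x 3′ single-cell RNA sequencing (v3 chemistry). The authors deposited raw counts, in which each entry is the number of distinct UMIs seen for 1 gene in 1 cell, with no scaling applied. The reads had been mapped to mm10 and counted in Cell Ranger 3.0.2 by the authors, per the file headers and the labels. The annotation release is not given in the sources used here. All libraries stood in 1 matrix, and the planned edgeR test between restored and non-restored mice was not run, since cells were not mapped to mice. No split of the cells on GFP, Stk11 or genes of the sex chromosomes was made. Cell barcodes were not used here, so depth per mouse and barcodes shared between libraries were not counted.

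Of 16017 cells, 2081 with under 500 genes and 1753 others above 20% mitochondrial UMIs were left out. The level of a gene in a gate (CPM) was its UMI sum over those cells divided by all their UMIs and multiplied by 1000000, which gives deep cells more weight. Intervals (95%) were exact Poisson for levels, exact conditional binomial for ratios and exact binomial (Clopper-Pearson) for shares. They cover counting error only, and 3 counts set the limit where a count was 0. No doublet caller was run, and leaving out the 6% of cells with most UMIs stood in for it. No cells had identical counts (0 pairs). The gates, the 7 genes, the pathway lists and the marker lists were chosen with earlier results of these data known. The text names the 7 genes, genes of the pathway lists and the 3 genes most like each of the 7. The bins of Krt8 and Krt18 were chosen after levels had been seen. Gene positions came from GENCODE M21 (31011 of 31055 gene IDs matched) and start regions from RefSeq, which held 5 of the 7 genes. 1 further allele that all mice shared is not reported here. Calculations were tested on simulated data. Values were computed with numpy 2.4.6 and pandas 2.3.3, intervals with scipy 1.17.1 and plots with matplotlib 3.10.9, under Python 3.11.15.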

Additional observations from a re-analysis of the deposited data

Results flagged for a closer look

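Cells above the mitochondrial limit lay outside every comparison, and 417 of these 1753 cells met the other conditions of the ATII gate, against 8 for the ATI gate, 14 for the keratin-high gate and 0 for the endothelial gate. All 7 genes were counted in those 417 cells at or above the level that 3 counts would give (1.42 CPM). Nrp1 stood at 252 CPM (231 to 275), Sema3c at 86.1 CPM (74.1 to 99.6) and Sema3a at 8.99 CPM (5.41 to 14.0) on 19 UMIs, each with an interval above that of the kept ATII cells. Nrp2 stood at 10.4 CPM (6.52 to 15.8) on 22 UMIs, which overlaps it. Sema3b and Sema3f each stood at 2.37 CPM on 5 UMIs, and Sema3e at 1.42 CPM on 3 UMIs.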

How the results depend on the processing

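With 1 pooled sample, nothing here measures the spread between mice, and counting intervals understate the error. Of 27 ratios of the 7 genes between gates, 25 kept their direction under all of their alternatives, and 318 of 323 values did. The others were the ratio of Sema3c between ATI and ATII (log2 0.10), which was -0.018 as a mean over cells, -0.090 without the 10 most abundant genes in the denominator, -0.25 relative to the median gene and -0.21 with Hopx of at least 30, and that of Sema3b between ATI and keratin-high, which was -0.057 with a keratin limit of 100. With that limit the Sema3a ratio between keratin-high and ATII was 1.47 in place of 2.10 (log2). The Nrp1 ratio between ATI and keratin-high (log2 1.03) was 0.81 at its lowest alternative, under 2-fold. Of 208 alternative values for 16 counts of called genes, 12 moved by more than 1.5 times. For the 7 genes, the count lower in ATI than in keratin-high went from 1 to 0 without the 10 most abundant genes, and the count lower in endothelial than in ATII from 2 to 1 without cells shared between gates and without the 6% of cells with most UMIs. For pathway genes lower in keratin-high than in ATII, the count of 3 became 6 without the 10 most abundant genes, 7 relative to the median gene and 1 with at least 5 CPM. Those lower in ATI than in ATII went from 7 to 11 with Hopx of at least 30 and 2 with at least 5 CPM. Those higher in ATI than in keratin-high went from 3 to 5 without the 10 most abundant genes and with Hopx of at least 30, those lower from 8 to 5 with at least 5 CPM, and those lower in endothelial than in ATII from 9 to 14 relative to the median gene. The minimum of 5 CPM tests fewer genes, and the cause of the other moves was not tested. The shares of all genes under these alternatives were not counted. Sema3e had no ratio between endothelial and ATII. No paired analysis was made because cells were not mapped to mice.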

Other observations

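Small groups of other cells had passed the sort, which gated against blood cells by CD45, F4/80 and Ter119. In 57 cells with at least 2 of 4 genes of motile cilia (Foxj1, Ccdc153, Tmem212 and Rsph1), Sema3e was counted at 71.6 CPM (57.2 to 88.6) in 39 cells, and Nrp2 at 3.37 CPM (0.918 to 8.63). In 80 cells with Tyrobp and Fcer1g, adaptor genes of myeloid cells, Sema3e stood at 26.6 CPM (19.8 to 34.8) in 29 cells, Nrp2 at 63.9 CPM (53.2 to 76.1) in 51 cells, and Sema3b had 0 UMIs. Plxnd1, the receptor of Sema3e, was 33.7 CPM in those cells and 11.0 CPM in the ciliated ones. In 233 cells with fibrillar collagen transcripts, Nrp1 stood at 400 CPM (381 to 421), detected in 86.3% of cells, and Sema3d at 27.9 CPM on 108 UMIs, against 6.63 CPM in the endothelial gate. Sema3g had 0 UMIs in them and 73 UMIs in the endothelial gate. Whether these cells are tumor cells was not tested.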
